A study of Homo sapiens with 9 samples.

Results

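The insulin-like growth factor binding protein (IGFBP) genes IGFBP1, IGFBP2, IGFBP3, IGFBP5 and IGFBP7 were taken by name as members of the family that senescent cells are known to secrete, 5 of the 20090 protein-coding genes whose start site lay in a Hi-C bin. They lie at 3 loci in the hg19 genome, with IGFBP1 and IGFBP3 side by side on chromosome 7, IGFBP2 and IGFBP5 side by side on chromosome 2, and IGFBP7 alone on chromosome 4. The measurement was Hi-C, in which crosslinked DNA that lay close together in the nucleus is cut, ligated and counted as contacts between 40 kb bins. The cells were IMR90, a line of normal human lung fibroblasts, all of them carrying an ER:HRAS(G12V) construct, a fusion of the oestrogen receptor with oncogenic HRAS that is switched on by 4-hydroxytamoxifen (4OHT). There were 3 growing libraries without 4OHT, of which growing 3 also carried an MSCV Vector, and 2 libraries of RAS-induced senescence (RIS) after 6 days in 100 nM 4OHT. All cells came from 1 line with 1 inducible construct, so that 4OHT and RIS could not be told apart, and the study's text calls the replicates biological, while the labels do not say whether libraries of a group came from separate cultures. The libraries held 109967509 to 180775314 contacts, and RIS libraries averaged 76.6% of the growing depth. By the study's alignment summary growing 1, growing 2 and RIS 1 had few duplicate reads and growing 3 and RIS 2 had many, so that both groups were in each class.

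IGFBPs are secreted proteins that bind IGF1 and IGF2 and so set how much growth factor reaches the type 1 receptor. IGFBP3 is the main carrier of IGF in serum, IGFBP1 and IGFBP2 carry an integrin-binding motif, IGFBP5 binds to the extracellular matrix, and IGFBP7 binds IGF weakly and is known as a secreted factor in oncogene-induced senescence. In folded chromosomes, neighbouring genes can be kept apart by a border between contact domains. Many such borders hold sites for CTCF, the protein at which loop extrusion by cohesin halts, and sites at the ends of a domain often point towards each other.

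IGFBP1 lay at chr7:45927959-45933259 on the forward strand, with its start in the bin from 45.92 Mb. IGFBP3 lay at chr7:45951844-45961473 on the reverse strand and started in the next bin, from 45.96 Mb. Most of the IGFBP3 gene lay in the bin of the IGFBP1 start. IGFBP2 lay at chr2:217497551-217529159 on the forward strand, with its start in the bin from 217.48 Mb. IGFBP5 lay at chr2:217536828-217560272 on the reverse strand, and its start was in the bin from 217.56 Mb. IGFBP7 lay at chr4:57896939-57976551 on the reverse strand and started in the bin from 57.96 Mb. All bins within 1 Mb of the 5 genes held values in the 5 Hi-C libraries.

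The matches at the borders beside these genes are shown because domains described below end there, although some domain ends held none. The word CCANNAGGNGGC, a short form of the core CTCF motif in which N is any base, was searched on both strands of hg19 and occurred in 26.05% of the 69621 bins with values. In each line the 12 matching bases are in capitals, between 9 flanking bases on either side and read 5′ to 3′ on the matching strand.
Border at 217.56 Mb, in an IGFBP5 intron, forward strand, chr2:217552552-217552581: tctgcatgaCCAGAAGGGGGCggcagggag
Border at 217.56 Mb, in an IGFBP2 exon, reverse strand, chr2:217526439-217526468: gtcacacagCCAGCAGGGGGCacagggact
Border at 45.92 Mb, in the IGFBP1 promoter bin, reverse strand, chr7:45933982-45934011: gccaagcctCCAAGAGGTGGCctgaggcaa
Border at 45.92 Mb, in the IGFBP1 promoter bin, reverse strand, chr7:45935523-45935552: atatgtaacCCATGAGGAGGCgcaccacat
Border at 46.4 Mb, outside annotated genes, forward strand, chr7:46400572-46400601: tgggaccccCCACGAGGGGGCacatggaca
Border at 58.04 Mb, in an IGFBP7-AS1 intron, forward strand, chr4:58050667-58050696: gggctgtagCCACGAGGCGGCattaggcag
Border at 58.04 Mb, in an IGFBP7-AS1 intron, forward strand, chr4:58060680-58060709: ccagcgcagCCAGCAGGAGGCccaagctag
Border at 57.88 Mb, in an IGFBP7 intron, forward strand, chr4:57918564-57918593: tcacctgggCCATGAGGAGGCactgaaccc
Partner of IGFBP5 at 360 kb, in a DIRC3-AS1 intron, forward strand, chr2:217950364-217950393: tcctcagtgCCAAGAGGAGGCagtcttccc
Partner of IGFBP5 at 1000 kb, in a DIRC3 intron, forward strand, chr2:218574396-218574425: ggcagctttCCACCAGGAGGCtatgggaag
The bin left of the border at 217.56 Mb, which holds the end of IGFBP2 and nearly all of IGFBP5, the IGFBP1 promoter bin and the bin at 58.04 Mb each held 2 matches, more than 94.3% of all bins. On chromosome 2 the 2 matches stood on opposite strands. On chromosome 7 the 2 in the IGFBP1 bin were on the reverse strand and the one at 46.4 Mb was on the forward strand. The promoter bins of IGFBP2, IGFBP3, IGFBP5 and IGFBP7 and the partner bins from 46.36, 218 and 218.36 Mb held no match. The bins on either side of the other ends of these domains, at 217.36 and 218.4 Mb on chromosome 2 and 57.84 Mb on chromosome 4, held none either. A match is a description of the letters, and binding of CTCF was not measured here.

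RefSeq promoters, given in build GRCh38.p14, were listed for 3 of the 5 genes, and the 250 bases before the start site are shown for IGFBP3 and IGFBP5, whose promoter bins had strong distant contacts and differ in base composition. The CG dinucleotides are in capitals.
IGFBP3, reverse strand, chr7:45921273-45921522: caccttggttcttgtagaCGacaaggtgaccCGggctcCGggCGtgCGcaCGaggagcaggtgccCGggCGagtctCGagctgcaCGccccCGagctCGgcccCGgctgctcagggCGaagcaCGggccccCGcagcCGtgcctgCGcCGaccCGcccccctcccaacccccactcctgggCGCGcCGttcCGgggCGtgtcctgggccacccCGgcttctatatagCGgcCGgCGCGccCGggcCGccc
IGFBP5, reverse strand, chr2:216695550-216695799: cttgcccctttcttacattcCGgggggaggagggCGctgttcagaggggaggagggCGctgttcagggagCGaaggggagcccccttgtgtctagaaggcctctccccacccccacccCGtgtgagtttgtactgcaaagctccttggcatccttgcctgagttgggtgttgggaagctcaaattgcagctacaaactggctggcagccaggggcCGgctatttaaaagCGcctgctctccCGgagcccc
The IGFBP3 promoter held 32 CG dinucleotides, more than 90.5% of the 35116 promoters listed. The IGFBP5 promoter held 8, against a median of 11 over all promoters.

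In growing and RIS fibroblasts a border lay at or near each of these genes: between the start sites of IGFBP2 and IGFBP5, at the left edge of the IGFBP1 bin, with IGFBP3 in the same domain, and upstream of IGFBP7. The insulation score is the log2 mean contact between the 520 kb to the left and the 520 kb to the right of a bin relative to its chromosome, so that a lower score is less contact across the bin. Borders were called as local minima of the same score taken at bin edges. The prominence of a border is how far the score rises from its minimum, on the side of smaller rise, before a lower minimum. The border at 45.92 Mb, at the left edge of the IGFBP1 promoter bin, had a prominence of 2.02, 1.99 and 2.27 in growing against 2.05 and 1.79 in RIS. The border at 217.56 Mb, just inside the 5′ end of IGFBP5 so that nearly all of that gene lies on the IGFBP2 side, had a prominence of 1.30, 1.19 and 1.26 in growing against 1.199 and 1.32 in RIS. The border at 58.04 Mb, upstream of IGFBP7, had a prominence of 1.70, 1.75 and 1.79 in growing against 1.69 and 1.81 in RIS. All 3 borders were called in the 5 libraries, and at each of them the prominence of the 2 groups overlapped. The score at the edge did not overlap at 45.92 Mb, with -1.38, -1.37 and -1.47 in growing against -1.17 and -1.32 in RIS. Nor did it at 58.04 Mb, with -1.27, -1.32 and -1.33 in growing against -1.52 and -1.59 in RIS. At 217.56 Mb it overlapped, and these edge scores were not tested.

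The domains these borders closed held few genes. IGFBP1 and IGFBP3 were the only protein-coding starts of a 480 kb domain from 45.92 to 46.4 Mb. IGFBP2 shared a 200 kb domain, from 217.36 to 217.56 Mb, with RPL37A, which codes for a ribosomal protein. The IGFBP5 start shared an 840 kb domain, from 217.56 to 218.4 Mb, with TNP1, a gene of spermatid chromatin, and its partner bins described below lay in the long noncoding RNA genes DIRC3-AS1 and DIRC3. IGFBP7 shared a 200 kb domain, from 57.84 to 58.04 Mb, with POLR2B, a subunit of RNA polymerase II, and NOA1, a mitochondrial GTPase.

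Some borders near the genes differed in prominence or place between libraries. The borders at 216.8 and 216.88 Mb, left of IGFBP2, were both called in all 5 libraries. The one at 216.88 Mb was the more prominent in the 3 growing libraries, with 2.12 to 2.20, and the one at 216.8 Mb in both RIS libraries, with 1.91 and 2.01. Their scores lay close together, at -1.26 and -1.33 in the growing mean map and -1.10 and -1.06 in the RIS mean map. Of 2 such neighbouring minima only the lower takes the full prominence, so a small difference in score sets which one it is. Over the chromosome 2 neighbourhood the score of whole bins was lowest in the bin from 216.88 Mb in all 5 libraries. A shallow border inside the IGFBP5 domain, at 218.04 Mb, was called in 0 of 3 growing libraries and in both RIS libraries, with a prominence of 0.23 and 0.20. Only called borders were given a prominence, so the growing libraries have no value there to compare. Genome-wide, more domains were called in RIS, at 5621, than in growing, at 5200. How often a border was called in both RIS libraries and in no growing library was not counted. The left border of the IGFBP7 domain was at 57.84 Mb in growing 1, growing 2 and RIS 2 and at 57.88 Mb in growing 3 and RIS 1, so its place did not follow the groups. Its prominence did not overlap, at 0.428, 0.448 and 0.328 in growing against 0.638 and 0.638 in RIS. Nor did that of the border at 46.4 Mb, at 0.379, 0.479 and 0.424 in growing against 0.532 and 0.547 in RIS.

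**Figure D1:**
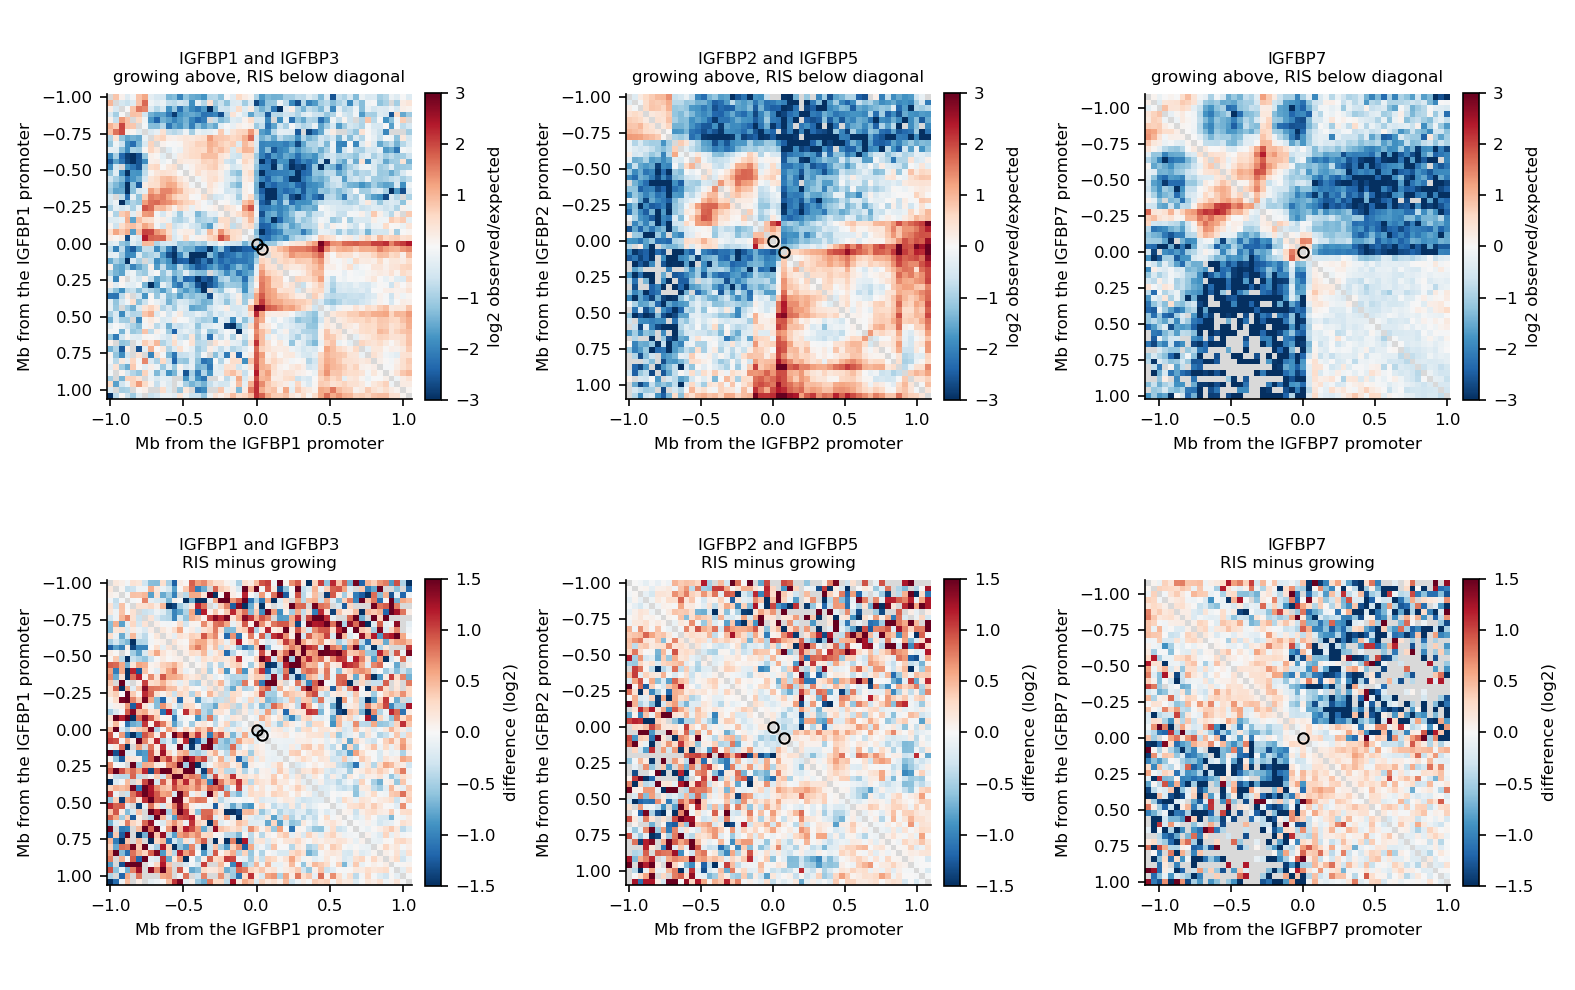
Contact maps of the 3 neighbourhoods, with both axes in Mb from the promoter bin named and circles at the IGFBP promoter bins. The upper row gives the log2 of the mean observed over expected contact, with growing above and RIS below the diagonal, and the lower row gives RIS minus growing, grey where a group mean was 0. The change from blue to red at the IGFBP5 promoter bin lies at the border at 217.56 Mb, and on chromosome 7 the border at 45.92 Mb is at the left edge of the IGFBP1 bin.

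The promoter bins of neighbouring IGFBP genes had little contact with each other, on chromosome 2 across a border and on chromosome 7 within 1 domain. Observed over expected contact (O/E) is the balanced contact of a bin pair divided by the mean of its chromosome at the same distance in the same library, so that 1 is the average pair. The bins of IGFBP1 and IGFBP3 touch each other, and their O/E was 0.347, 0.323 and 0.309 in growing against 0.263 and 0.275 in RIS, from 162, 173, 153, 85 and 122 contacts. The same pair joins the IGFBP3 start to the rest of the IGFBP3 gene, so its values cannot be assigned to the IGFBP1 promoter alone. The bins of IGFBP2 and IGFBP5 lie 80 kb apart, and their O/E was 0.245, 0.247 and 0.184 in growing against 0.160 and 0.165 in RIS, from 40, 42, 32, 20 and 26 contacts. Both pairs were thus below the average pair, by 3.07-fold in growing and 3.72-fold in RIS for IGFBP1 with IGFBP3, and by 4.47-fold and 6.15-fold for IGFBP2 with IGFBP5.

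In both pairs every RIS library lay below every growing library. How often other pairs at these distances separate the groups was not counted. In the summed contact of promoter bins within 1 Mb, described below, the groups did not overlap for 59.0% of all promoter bins. The log2 difference between RIS and growing was -0.28 for IGFBP1 with IGFBP3 (exact two-sided permutation test, p = 0.1) and -0.46 for IGFBP2 with IGFBP5 (exact p = 0.2), where 0.1 is the smallest p that 3 against 2 libraries allow. In the limma fit over all bin pairs neither pair was called, with an adjusted p (Benjamini-Hochberg) of 0.48 and 0.63. Without the balancing, as a share of each library's contacts, the IGFBP1 and IGFBP3 pair kept this separation and the IGFBP2 and IGFBP5 libraries overlapped.

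The IGFBP3 promoter bin met the bins to its right far more than those to its left. The O/E of the IGFBP3 promoter bin summed over the 25 bins to its left was 0.276, 0.235 and 0.229 in growing against 0.248 and 0.259 in RIS. Over the 25 bins to its right it was 2.07, 2.11 and 2.09 in growing against 2.17 and 2.11 in RIS. Both groups overlapped on either side, and the contrast between the sides stood in all 5 libraries.

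The IGFBP5 promoter bin had the same one-sided profile. To its left O/E was 0.238, 0.270 and 0.278 in growing against 0.232 and 0.246 in RIS. To its right it was 2.52, 2.45 and 2.497 in growing against 2.64 and 2.60 in RIS, and here both RIS libraries were above the growing libraries (exact p = 0.1). With the rest of its own domain O/E was 2.35, 2.31 and 2.38 in growing against 2.54 and 2.498 in RIS, and with the bins outside it was 0.494, 0.492 and 0.487 in growing against 0.431 and 0.435 in RIS. The groups did not overlap in either, with RIS above inside the domain and below outside it (exact p = 0.1 for each).

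IGFBP1, beside the border, also faced right but was less one-sided. To its left O/E was 0.568, 0.572 and 0.551 in growing against 0.644 and 0.618 in RIS, with both RIS libraries above growing (exact p = 0.1), and to its right it averaged 1.39 in growing and 1.40 in RIS. With the rest of its called domain it was only 0.942, 0.941 and 0.827 in growing against 0.901 and 0.894 in RIS. Outside that domain it was higher, at 1.01, 1.05 and 1.00 in growing against 1.12 and 1.08 in RIS (exact p = 0.1). IGFBP3, by contrast, averaged 1.59 inside the domain and 0.670 outside it in growing. IGFBP2 faced left, with 1.53, 1.49 and 1.54 to its left in growing against 1.62 and 1.66 in RIS. To its right it had 0.800, 0.856 and 0.801 in growing against 0.791 and 0.725 in RIS, so that both sides separated the groups in opposite directions (exact p = 0.1 for each).

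IGFBP7 faced left, into its gene body and domain. To its left O/E averaged 1.28 in growing and 1.32 in RIS, and the libraries overlapped. To its right it was 0.427, 0.458 and 0.459 in growing against 0.536 and 0.507 in RIS, without overlap (exact p = 0.1). That side includes the bin from 58 Mb, inside the domain, beside those across the border at 58.04 Mb. With the bins outside the domain, on both sides, O/E was 0.342, 0.360 and 0.398 in growing against 0.383 and 0.346 in RIS, which overlapped. Over all 25 comparisons of this kind, with 5 sets of bins for each gene, the groups did not overlap in 14, with RIS above in 12 and below in 2. The sets of a gene share bins, so these are not separate comparisons. For the set of all bins within 1 Mb, the groups did not overlap for 59.0% of all promoter bins, 45.6% with RIS higher. For the other sets this share was not counted. None of the 25 reached a Benjamini-Hochberg adjusted exact p under 0.19.

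**Figure D2:**
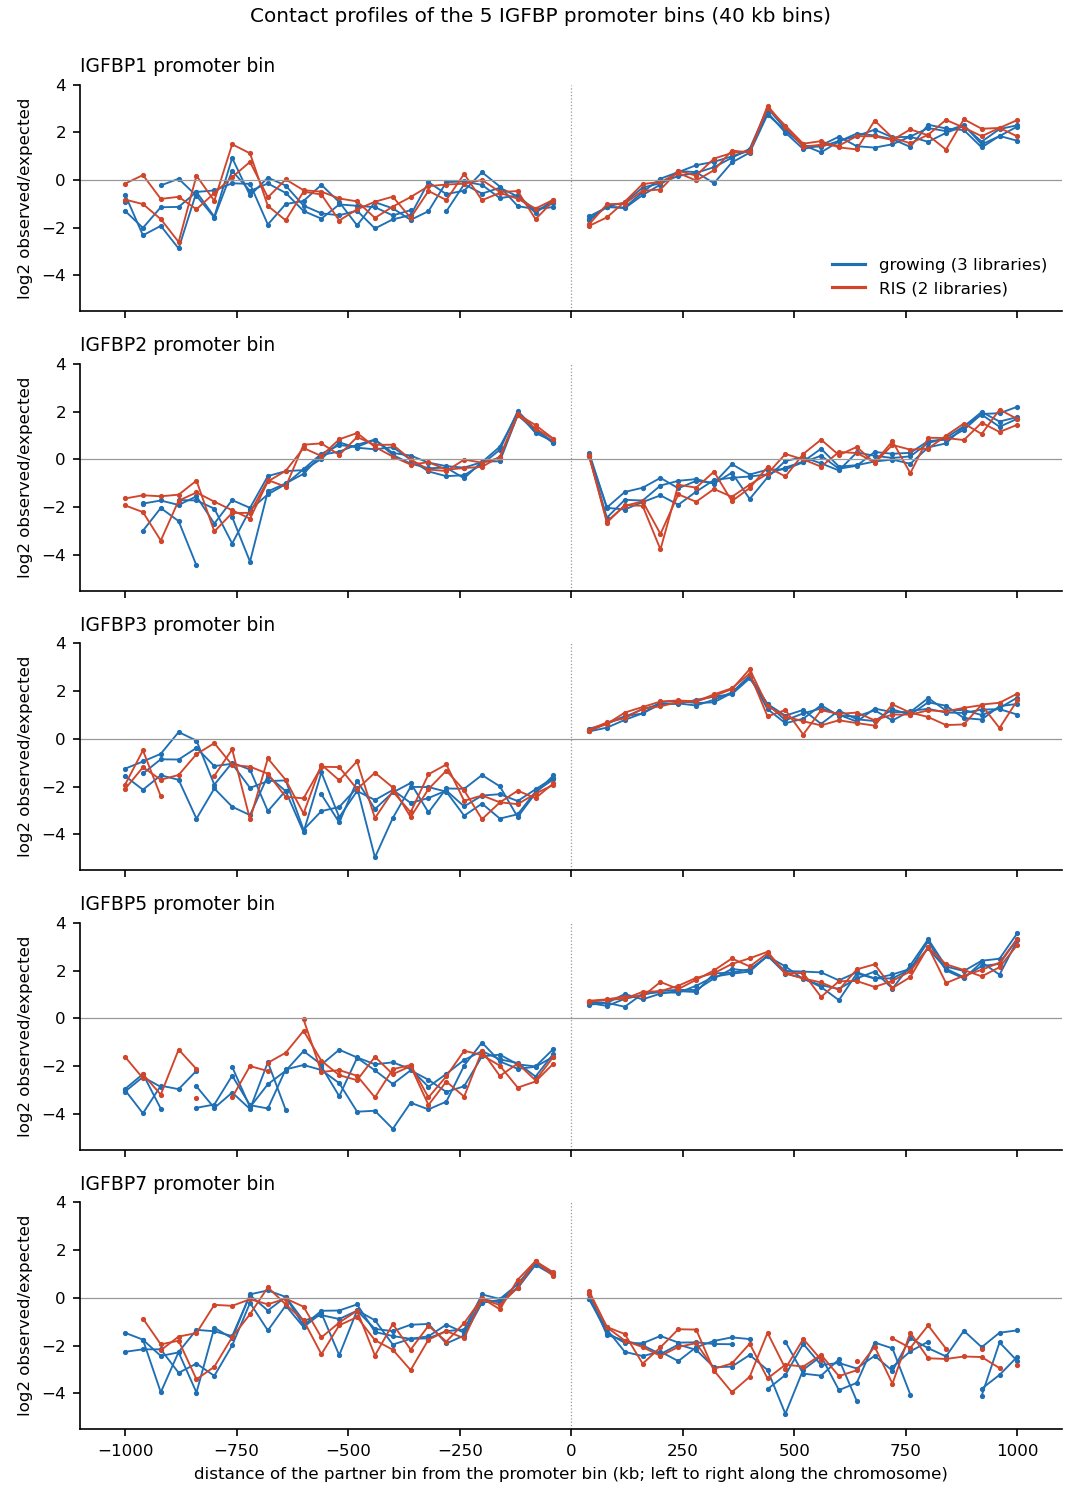
Contact profiles of the 5 promoter bins. Each line is 1 of the 5 libraries and gives the log2 O/E (vertical axis) of the promoter bin with each 40 kb bin up to 1000 kb to either side (horizontal axis), where a gap marks 0 contacts. IGFBP3 and IGFBP5 sit above 0 to the right and, but for a point of 1 growing library at IGFBP3, below 0 to the left, and IGFBP1 peaks at 440 kb.

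The strongest distant contacts of IGFBP1, IGFBP2, IGFBP3 and IGFBP5 joined their promoters to bins on their right without a protein-coding start. In their neighbourhoods no such start lay right of the IGFBP3 bin, and only that of TNP1 lay right of the IGFBP5 bin. The lack of starts was thus nearly fixed by where the genes lie. For each gene, the 3 partner bins at least 200 kb away with the highest growing mean O/E were taken, so their strength and their RIS minus growing differences are a description, with no test. The IGFBP1 promoter bin had an O/E of 7.10, 8.10 and 6.68 in growing against 8.62 and 8.09 in RIS with the bin from 46.36 Mb, 440 kb to the right and at the far end of its domain. Among the 68157 pairs at that distance only 0.0631% had a higher growing mean. The IGFBP3 promoter bin met the same bin with 6.23, 5.81 and 6.18 in growing against 6.66 and 7.57 in RIS.

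By growing mean O/E, the IGFBP5 promoter bin had the strongest of the distant contacts taken for the 5 genes, at 1000 and 800 kb. With the bin from 218.56 Mb, 1000 kb away within DIRC3, O/E was 11.9, 10.1 and 9.65 in growing against 10.1 and 8.47 in RIS, and only 0.0252% of pairs at that distance were higher. With the bin from 218.36 Mb, 800 kb away and at the end of its domain, it was 9.97, 7.63 and 9.39 in growing against 7.97 and 7.84 in RIS. With the bin from 218 Mb, 440 kb away within DIRC3-AS1, it was 6.07, 6.15 and 6.21 in growing against 6.92 and 6.61 in RIS.

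IGFBP2 reached over the border into DIRC3 as well. With the bin from 218.4 Mb, 920 kb away, O/E was 3.97, 3.74 and 3.67 in growing against 2.10 and 2.90 in RIS. IGFBP7 had no such partner. Its highest growing mean at 200 kb or more was 1.02, with the bin from 57.24 Mb where AASDH starts, and 39.8% of pairs at that distance were higher. The next was 0.979, with the bin of REST, a repressor of neuronal genes.

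**Figure D3:**
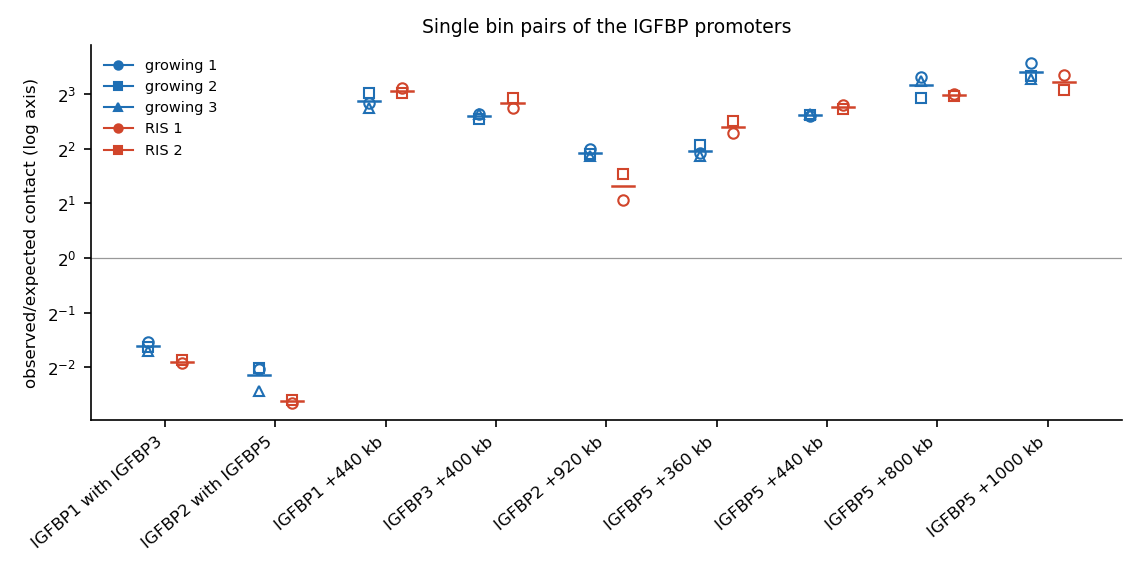
O/E of single bin pairs on a log axis, with 1 point for each library and a bar at the mean of each group. The pairs of neighbouring promoters lie below 1, at 0.160 to 0.347, and the distant pairs above 1, from 2.10 for IGFBP2 at 920 kb to 11.9 for IGFBP5 at 1000 kb.

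No contact of an IGFBP promoter was called different between RIS and growing in the limma fit on log2 balanced contacts. Of 1958841 bin pairs tested genome-wide 38 were called at a 5% false discovery rate, which is 0.00194%, and of the 184 tested pairs that join an IGFBP promoter bin to a bin within 1 Mb 0 were called. At an unadjusted p under 0.05 there were 15 of the 184, or 8.15%, where 11.5% of all pairs tested genome-wide were under it. Among all 2490 tested pairs of the 3 neighbourhoods 0 were called and 269, or 10.8%, had an unadjusted p under 0.05.

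The pair with the smallest unadjusted p is given for each gene, and none was called. For IGFBP1 it was the bin from 45.2 Mb, 720 kb to the left in the gene of RAMP3, a receptor activity-modifying protein, with 11, 8 and 9 contacts in growing against 13 and 22 in RIS (log2 fold change 1.35 ± 0.31 SE, limma adjusted p = 0.29). For IGFBP2 it was the bin from 217.68 Mb, 200 kb to the right and across the border, with 6, 10 and 8 contacts in growing against 1 and 2 in RIS (log2 fold change -2.11 ± 0.35 SE, limma adjusted p = 0.25). For IGFBP3 it was the bin from 45.68 Mb in ADCY1, an adenylyl cyclase, with 11, 12 and 10 contacts in growing against 15 and 16 in RIS (limma adjusted p = 0.35). Each of these rested on few contacts.

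For IGFBP5 the smallest p was at 360 kb to the right, the bin from 217.92 Mb in DIRC3-AS1, and it rested on more contacts. O/E was 3.78, 4.20 and 3.66 in growing against 4.85 and 5.70 in RIS, from 180, 214, 174, 167 and 232 contacts (log2 fold change 0.36 ± 0.12 SE, limma adjusted p = 0.35). For IGFBP7 it was the bin from 57.4 Mb in THEGL, 560 kb to the left, with 13, 14 and 15 contacts in growing against 4 and 3 in RIS (log2 fold change -1.34 ± 0.40 SE, limma adjusted p = 0.33). In these pairs, each picked by its p, RIS was higher for IGFBP1, IGFBP3 and IGFBP5 and lower for IGFBP2 and IGFBP7. A single picked pair does not give the order of the groups for a gene.

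A count test on recovered contacts (limma's voom) called more pairs everywhere, 1.25% of all pairs and 0.857% as higher in RIS. It called 4 of the 184 IGFBP pairs, all higher in RIS. They were IGFBP1 with the RAMP3 bin (voom adjusted p = 0.026), IGFBP5 with the bin at 360 kb (0.011), IGFBP2 with the bin from 216.88 Mb where MREG starts, 600 kb to the left (0.025), and IGFBP2 with the bin from 217.4 Mb over RPL37A, 80 kb to the left (0.0072). For IGFBP2 and MREG the O/E was 0.659, 0.754 and 0.733 in growing against 1.54 and 1.39 in RIS, and for IGFBP2 and RPL37A it was 2.16, 2.32 and 2.40 in growing against 2.44 and 2.71 in RIS. The contacts that voom fits are not balanced. The log2 fold change was 1.11 with voom and 1.01 in the limma fit for MREG, and 0.35 and 0.12 for RPL37A. Coverage of the IGFBP2 bin, given below, was higher in RIS, and its part in these calls was not tested.

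Within the 3 neighbourhoods voom called 37 of the 2490 pairs, 33 of them higher in RIS, with 21 on chromosome 7, 12 on chromosome 2 and 4 on chromosome 4. The calls differed between the tests, as all 21 on chromosome 7 were higher with voom, while limma's 38 calls genome-wide were 1 higher and 37 lower. Those 21 pairs were also higher in RIS in the limma fit, though not called there. They were picked by voom on the same libraries, so a shared direction was close to given and does not compare the tests. The chromosome 7 calls lay mostly to the left of IGFBP1, where 1 pair ended in the IGFBP1 bin and none in the IGFBP3 bin. On chromosome 2 the bin from 217.92 Mb took part in 5 of the 12 calls, with partners at the IGFBP5 promoter, in the bin of the IGFBP5 gene body and the IGFBP2 end, at TNP1 and at 217.64 and 217.76 Mb. On chromosome 4, 1 call joined the bin from 57.84 Mb, at the left end of the IGFBP7 domain, to the bin from 58.04 Mb. That bin lies outside the domain, across its right border. This pair had 64, 47 and 49 contacts in growing against 14 and 22 in RIS and was called lower (voom adjusted p = 0.032).

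The bin from 217.92 Mb lies in the region that the study lists as an enhancer of IGFBP5, chr2:217905101-217972606, 67.5 kb long. Summed over the 3 bins that the region overlaps, the O/E with the IGFBP5 promoter bin was 3.86, 3.75 and 3.61 in growing against 4.68 and 4.72 in RIS, from 419, 445, 404, 366 and 450 contacts. Both RIS libraries were above all growing libraries (exact p = 0.1). The study chose this pair on these libraries, so the direction is no independent evidence.

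Summed contact within 1 Mb had a higher mean in RIS at all 5 promoters, by amounts that were not called, and the median difference over all 13852 promoter bins was 0.04 in the same direction. Local contact is the log2 of summed observed over summed expected contact of a promoter bin with the bins 40 kb to 1 Mb away. IGFBP5 had 0.47, 0.44 and 0.47 in growing against 0.52 and 0.51 in RIS, which is higher than 98.6% of 13852 promoter bins in growing and 98.3% in RIS. IGFBP2 had 0.22, 0.23 and 0.23 in growing against 0.27 and 0.25 in RIS, and IGFBP3 had 0.23, 0.23 and 0.21 in growing against 0.27 and 0.25 in RIS. In growing, IGFBP2 and IGFBP3 did not differ from each other beyond their spread, and they were higher than 83.7% and 83.6% of promoter bins.

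IGFBP1 had a local contact of -0.02, 0.01 and -0.10 in growing against 0.04 and 0.01 in RIS. IGFBP7 was the lowest of the 5, with -0.28, -0.18 and -0.17 in growing against -0.11 and -0.12 in RIS, and only 13.01% of promoter bins were lower in growing. The RIS minus growing difference was 0.06 ± 0.04 (SE) for IGFBP1, 0.04 ± 0.02 for IGFBP2, 0.03 ± 0.02 for IGFBP3, 0.06 ± 0.03 for IGFBP5 and 0.10 ± 0.04 for IGFBP7, which was 0.02 with an expected contact taken over the whole genome. The libraries of the 2 groups did not overlap for 4 of the 5, IGFBP1 being the exception, where they did not overlap for 59.0% of all promoter bins, 45.6% with RIS higher. Limma called none of the 5 where it called 29.5% of all promoter bins. The smallest adjusted p was 0.10, for IGFBP7, which was also the 1 gene with an unadjusted p under 0.05. The coverage of the promoter bins, which balancing removes, was higher in RIS for IGFBP2 (log2 difference 0.09) and lower for IGFBP3 (-0.07) without overlap, and overlapped for the other 3. On contacts that were not balanced, the difference in local contact was 0.14 for IGFBP1, 0.16 for IGFBP2 and 0.13 for IGFBP5, each called by limma (adjusted p = 0.029, 0.0069 and 0.036), and 0.01 for IGFBP3 and 0.13 for IGFBP7, neither called. There the median over all promoter bins was 0.09 and 39.7% of them were called.

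**Figure D4:**
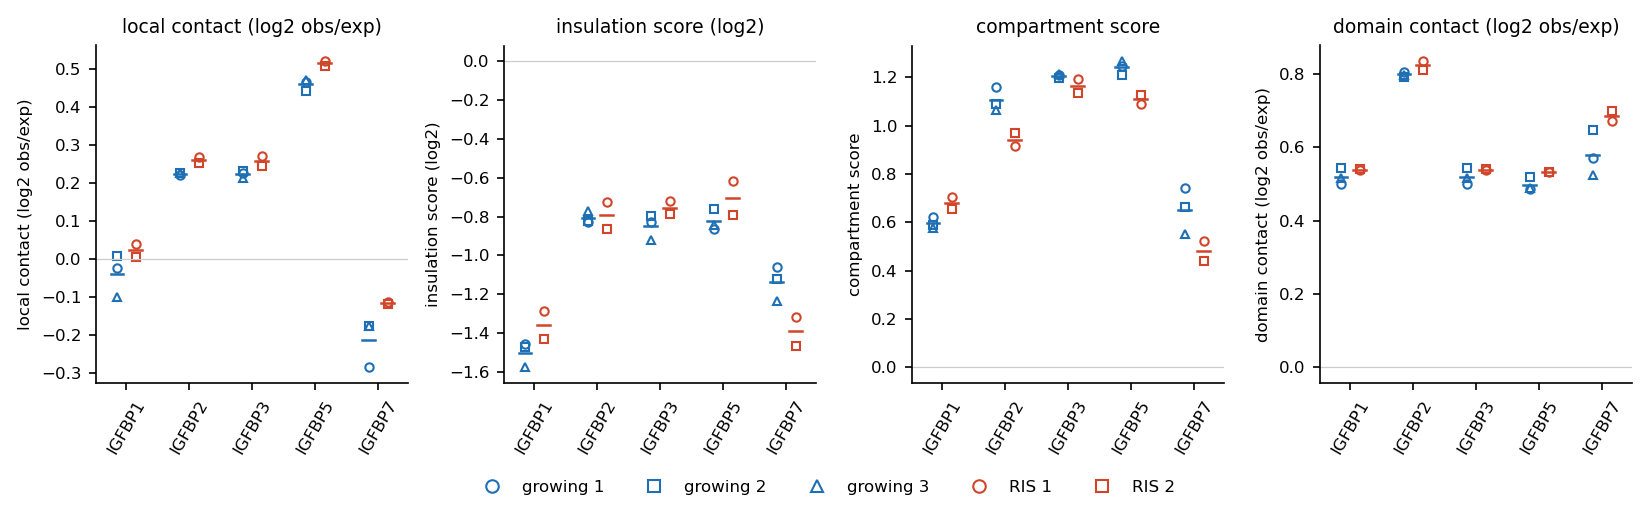
Local contact, insulation score, compartment score (arbitrary units) and domain contact of the 5 genes, from left to right. Each point is 1 library, shapes mark the replicate, and bars mark the mean of each group; IGFBP1 and IGFBP3 share 1 domain and so 1 value of domain contact. In insulation score IGFBP7 lay at -1.06 to -1.23 in growing against -1.32 and -1.46 in RIS.

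The insulation score of the IGFBP7 promoter bin fell. It was -1.06, -1.12 and -1.23 in growing against -1.32 and -1.46 in RIS, a difference of -0.25 ± 0.06 (SE) that limma called (adjusted p = 0.0084), and the groups did not overlap. It was the only one of the 5 promoters called, where 53.1% of all bins were called. Without RIS 2 the difference was -0.18 and with a 240 kb window it was -0.11, and neither was called. At IGFBP1 the score was -1.45, -1.47 and -1.57 in growing against -1.29 and -1.43 in RIS, a difference of 0.14 ± 0.05 with an adjusted p of 0.05001, just above the threshold. It was 0.07 without RIS 1, and 0.17 without growing 1 and 0.21 without RIS 2, both called.

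The other 3 promoters had smaller differences of 0.01 ± 0.04 for IGFBP2, 0.09 ± 0.04 for IGFBP3 and 0.12 ± 0.06 for IGFBP5, none of them called. For IGFBP5 it was 0.03 without RIS 1 and 0.20 without RIS 2, where it was called. All 5 promoters sat in insulated bins. In growing, 2.66% of promoter bins were lower than IGFBP1, 7.30% lower than IGFBP7, and 15.3% to 16.8% lower than the other 3.

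The lower insulation score was not confined to the IGFBP7 promoter bin. In its neighbourhood 34 of 53 bins were called, 26 higher and 8 lower in RIS. The bin with the largest fall, chosen after its values were seen, was the one from 57.84 Mb where POLR2B and NOA1 start, at -1.30, -1.33 and -1.27 in growing against -1.82 and -1.86 in RIS (difference -0.54 ± 0.03 SE, limma adjusted p = 8.3e-05). The bin from 58 Mb, between the IGFBP7 start and the border, was at -1.55, -1.62 and -1.68 in growing against -1.97 and -2.16 in RIS (difference -0.45 ± 0.06 SE, limma adjusted p = 0.00076).

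Around the other genes 25 of 52 bins were called on chromosome 7, 24 of them higher in RIS, and 26 of 53 on chromosome 2, 25 of them higher, shares of 48.1% and 49.1% beside the 53.1% of all bins. Genome-wide 24.9% of bins were called higher and 28.2% lower, and neighbouring bins share most of their window. On chromosome 7 the largest rise, again chosen after the values were seen, was at 45.44 Mb to the left of IGFBP1, from 0.21, 0.15 and 0.04 in growing to 0.51 and 0.49 in RIS (difference 0.37 ± 0.05 SE, limma adjusted p = 0.00062). On chromosome 2 it was at 216.84 Mb, from -1.42, -1.42 and -1.45 to -1.12 and -1.21 (difference 0.27 ± 0.04 SE, limma adjusted p = 0.00069).

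**Figure D5:**
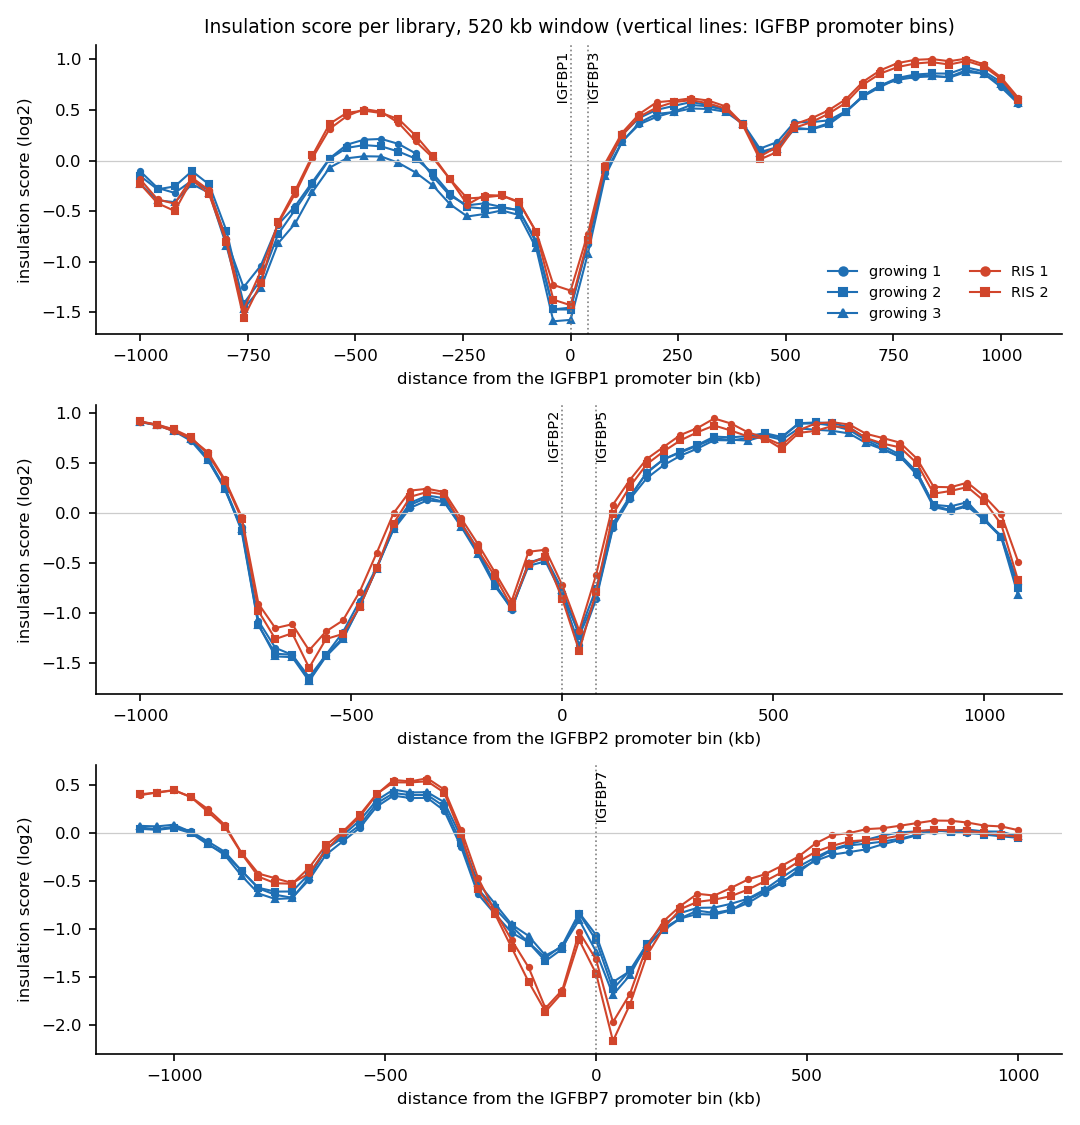
Insulation score (log2, 520 kb window) of each library along the 3 neighbourhoods, against the distance in kb from the promoter bin named; dotted lines mark the IGFBP promoter bins. IGFBP1, IGFBP2 with IGFBP5, and IGFBP7 all lie at or beside a minimum. From the bin of POLR2B and NOA1 to the border beside IGFBP7 both RIS libraries run below the growing libraries, by 0.54 at most between the group means.

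The domain of IGFBP7 gained contact within itself. Domain contact is the log2 of summed observed over expected contact between the bins of a domain, and for IGFBP7 it was 0.57, 0.65 and 0.52 in growing against 0.67 and 0.70 in RIS (difference 0.11 ± 0.03 SE, limma adjusted p = 0.036). It was the only one of the 4 domains with an IGFBP gene that was called, where 52.4% of all domains were called. The call was lost without growing 1, growing 3, RIS 1 or RIS 2 in turn, at differences of 0.08 to 0.12, and with an expected contact taken over the whole genome it was 0.02. The IGFBP7 gene body spans several bins, and its O/E with the rest of the domain was 1.24, 1.33 and 1.18 in growing against 1.46 and 1.43 in RIS (exact p = 0.2), without overlap.

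The other 3 domains had differences of 0.02 ± 0.02 for IGFBP1 with IGFBP3, 0.02 ± 0.02 for IGFBP2 and 0.03 ± 0.02 for IGFBP5.

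All 5 genes lay in the A compartment, the gene-rich side, in every library. The compartment score is the first principal component of the correlation of 120 kb bins, in arbitrary units, with positive values towards gene-dense chromatin. IGFBP2 was at 1.16, 1.09 and 1.07 in growing against 0.92 and 0.97 in RIS, a fall of 0.16 ± 0.05 (SE) that limma called (adjusted p = 0.041). It was the only one of the 5 called, where 45.2% of 120 kb bins were called. The call was lost without growing 1, growing 2, RIS 1 or RIS 2 in turn, at differences of -0.19 to -0.13.

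IGFBP5 was at 1.24, 1.21 and 1.27 in growing against 1.09 and 1.13 in RIS (limma adjusted p = 0.055), and IGFBP7 was at 0.74, 0.66 and 0.55 in growing against 0.52 and 0.44 in RIS (limma adjusted p = 0.084). Neither pair of groups overlapped. IGFBP3 averaged 1.21 in growing and 1.16 in RIS, and IGFBP1 averaged 0.60 and 0.68. In growing the scores of IGFBP3 and IGFBP5 were above those of 88.3% and 89.8% of promoter bins, and those of IGFBP1 and IGFBP7 were near the middle, at 53.7% and 55.9%.

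Contacts beyond 2 Mb were read in 200 kb bins, where limma called 8.37% of all pairs genome-wide and 11 of the 228 tested pairs of the IGFBP bins, 3 higher and 8 lower in RIS. With voom 13.2% of all pairs and 16 of the 228 were called, 9 higher and 7 lower, so the direction of the calls depended on the test. The 200 kb bin that holds IGFBP2 and IGFBP5, from 217.4 Mb, had scaled contacts of 50.7, 45.1 and 41.5 in growing against 13.01 and 18.8 in RIS with the gene-dense bin from 220 Mb (limma adjusted p = 0.0092). With the bin from 214 Mb, which holds starts of IKZF2 and SPAG16, it had 11.3, 16.0 and 17.1 in growing against 44.5 and 37.3 in RIS (limma adjusted p = 0.011). Its remaining call, with the bin from 232 Mb where ARMC9 starts, was lower in RIS, at 17.4, 15.5 and 25.1 in growing against 8.80 and 3.86 (limma adjusted p = 0.043). Voom called 1 pair of this bin, higher in RIS, so neither lower call was kept.

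The bin that holds IGFBP1 and IGFBP3, from 45.8 Mb, had 7 of the 11 calls, 6 of them lower (5 with voom, 4 of them lower). Of these, 4 were with neighbouring bins from 48 to 48.6 Mb, among them the bin of ABCA13, with 51.2, 57.0 and 51.6 in growing against 31.7 and 28.5 in RIS (limma adjusted p = 0.024). The bin of IGFBP7, from 57.8 Mb, had 1 call (10 with voom, 7 higher and 3 lower), with the bin of GABRA2, a GABA receptor subunit, at 46.4 Mb, which rose from 8.82, 8.53 and 7.51 to 20.0 and 22.2 (limma adjusted p = 0.035). There were 2, 3 and 2 calls without growing 1, growing 2 and growing 3, and 8 and 11 without RIS 1 and RIS 2, while the share of all pairs called was 4.39%, 2.92%, 3.27%, 3.63% and 5.74%. With 400 kb bins there were 96 of 494 pairs tested, or 19.4%, where 27.1% of all pairs were called. These 200 kb bins hold other genes besides the IGFBP genes, and their values cannot be assigned to one of them.

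Contacts between the 3 loci were few, at 7 to 23 in each library, and their O/E ranged from 0.374 to 1.60. For chromosome 7 with chromosome 4 it was 1.16, 1.60 and 1.19 in growing against 0.833 and 0.776 in RIS (exact p = 0.1). The other 2 pairs of loci overlapped between the groups.

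In the capture Hi-C libraries, 2 growing and 2 RIS, in which chosen regions were enriched with RNA baits and counted in 10 kb bins, none of the bins within 1 Mb of the 5 genes held a value. The regions chosen for capture did not include them. Around IGFBP4, a further member of the family that was not among the 5, 77 to 78 of 203 bins held values.

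The wider IGF system was read in the same fits over promoter bins, from a list of 36 ligands, receptors, adaptors, proteases and other binding proteins. For local contact 9 of the 34 genes with a value were called, 8 higher and 1 lower in RIS, which is 26.5% beside 29.5% of all promoter bins. For insulation 15 of 33 were called, 8 higher and 7 lower (45.5% beside 49.1%), and for compartment score 19 of 32, 8 higher and 11 lower (59.4% beside 45.6%). The median difference in local contact was 0.05 over the list and 0.04 over all promoter bins. These counts depended on single libraries, as did those over all features: local contact had 4, 2 and 3 calls without growing 1, RIS 1 and RIS 2, beside 16.0%, 8.09% and 17.1% of all promoter bins. Compartment score had 10, 7 and 7 calls without growing 2, RIS 1 and RIS 2, beside 35.2%, 16.8% and 18.8% of all 120 kb bins.

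Among the 8 genes with the smallest adjusted p for local contact were 2 transcription factors downstream of IGF signalling. FOXO3 rose from a mean of 0.05 to 0.18 (difference 0.13 ± 0.03 SE, limma adjusted p = 0.0096) and FOXO1 from 0.18 to 0.30 (0.12 ± 0.02 SE, limma adjusted p = 0.010). Of the receptor adaptors GRB10 rose by 0.15 ± 0.03, GRB14 fell by 0.16 ± 0.04 and IRS2 rose by 0.09 ± 0.03, each called by limma. HTRA1, a secreted protease that cleaves IGFBPs, rose by 0.09 ± 0.02, and KAZALD1, a secreted protein related to the IGFBPs, rose by 0.26 ± 0.06.

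Of the other IGFBP genes, IGFBP6, which prefers IGF2, had a local contact of 0.21, 0.20 and 0.17 in growing against 0.26 and 0.29 in RIS (difference 0.08 ± 0.03 SE, limma adjusted p = 0.043). IGFBP4 had 0.16, 0.17 and 0.13 in growing against 0.15 and 0.20 in RIS, with a difference of 0.02 ± 0.03 that was not called. IGFBP6 also fell in compartment score, from a mean of 1.11 to 0.91 (limma adjusted p = 0.019), and IGFBP4 stayed uncalled for all 3 measures.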

How the data were processed

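The deposited Hi-C values were signal: contacts per pair of 40 kb bins in hg19 that the authors had balanced (the labels name FastQC and HiC-Pro), each library scaled to 1 total. Capture libraries were deposited by the authors as signal in 10 kb bins. Whole contacts were recovered from the balanced values with 1 factor per bin, with 0 values outside a tolerance of 0.05, and set the depths given in the report.

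Balanced values were scaled to the mean depth, and log2(value + 0.5) was normalised by cyclic loess (span 0.3, 4 iterations) and tested in limma 3.58.1 (R 4.3.3) with a variance trend, over all pairs up to 2 Mb apart with a mean of at least 5, with Benjamini-Hochberg adjustment at 5%. The study's methods use a count model, for which the limma fit stands in, and voom on recovered contacts was an alternative. Pairs of 200 kb bins needed a mean of at least 10. Local contact, insulation (520 kb window, borders at a prominence of at least 0.1), compartment score and domain contact were fitted with limma over all bins or domains. Single values were given an exact two-sided permutation test. The fit was tested on simulated data. Of 5 libraries, p-values measure the spread between libraries, which the study's text calls biological replicates.

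Genes are from GENCODE, and samples were grouped by their labels. The members and gene lists were chosen with earlier results of these data known. Each promoter profile names the called pairs or, with none, the pair of smallest p, and the IGF list names 8 called genes by local contact, IGFBP4 and IGFBP6. No per-sample column was left out.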

Additional observations from a re-analysis of the deposited data

How the results depend on the processing

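Of 340 alternative values, 253 were taken as the same. These kept their direction and side of the threshold, moved by less than the spread allowed or, for counts, stayed near the main count. Of the rest, 52 moved, 11 lost their call, 15 gained one and 9 reversed. Member values that were not called made up 184 of the 340, and 150 of these were among the 253. The cause of a change was not tested unless stated. With voom there were 4 calls in the promoter profiles, 37 in the 3 neighbourhoods and 16 distal calls. Leaving out 1 library gave 0 to 7 calls in the neighbourhoods, 2 to 11 distal calls, 1 to 2 promoters called for insulation, 0 to 2 for compartment score, and 0 to 1 domain. Scaling to the library total without loess moved the median of all pairs to -0.12 (log2), with 0 calls in the promoter profiles and 11 distal calls. Distal calls were 5 with a smallest mean of 20, which tests fewer pairs, and 96 of 494 pairs with 400 kb bins, or 19.4% beside 27.1% of all pairs. Promoters called for local contact were 1 at 240 kb to 1 Mb and 3 without balancing, beside 16.8% and 39.7% of all promoter bins. Promoters called for insulation were 0 with a 240 kb window, 3 with a 1 Mb window and 3 without balancing. Of all bins 43.3%, 58.5% and 43.7% were called there. Compartment score called 3 with 200 kb bins, beside 45.3% of all such bins. With a genome-wide expected contact 0 domains were called, beside 56.0% of all domains.

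Each reversed difference belonged to a value that was not called in the report. Local contact was -0.033 for IGFBP1 at 40 to 200 kb and -0.016 for IGFBP7 at 240 kb to 1 Mb. With the 240 kb window the insulation difference was -0.019 for IGFBP1, -0.073 for IGFBP2, -0.063 for IGFBP3, -0.010 for IGFBP5 and, for IGFBP7, -0.11 and no longer called. IGFBP2 insulation was -0.090 within the many-duplicates class and -0.055 to 0.083 with 1 library left out, and IGFBP3 compartment score was 0.11 with 200 kb bins. Leaving out 1 library gave -0.32 to -0.18 for IGFBP7 insulation, -0.19 to -0.13 for IGFBP2 compartment score and 0.077 to 0.14 for IGFBP7 domain contact, which was 0.023 with a genome-wide expected contact. Within the many-duplicates class, of growing 3 and RIS 2 alone, IGFBP2 compartment score was -0.10, IGFBP7 domain contact 0.17, and the pairs of neighbouring promoters -0.17 for IGFBP1 with IGFBP3 and -0.16 for IGFBP2 with IGFBP5. For the IGF list, local contact had 4 calls at 40 to 200 kb and 5 at 240 kb to 1 Mb, and with 1 library left out 2 to 8 for local contact and 7 to 19 for compartment score.

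The deviations of same-numbered libraries from their group correlated at 0.0029 and -0.0015. With 2 RIS libraries the deviation of one mirrors that of the other, and deviations of single bin pairs hold counting noise. These values therefore cannot decide whether replicate numbers pair the libraries. The fit with the replicate number as a block gave 7 distal calls. It called 2 promoters for compartment score, beside 51.2% of all 120 kb bins. For local contact it called 5 IGF list genes, beside 21.0% of all promoter bins. IGFBP7 compartment score was called there at -0.22, and 28 of 32 block values kept their call or count.

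Few contacts limited the pairs that cross a border, many with under 20 contacts in a library.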

Other observations

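The genes in this paragraph were chosen after their values were seen. In the compartment score, where 45.6% of all promoter bins were called, 3 genes of the CCN family, secreted matrix proteins with an IGFBP-like domain, were lower in RIS. CYR61 fell from a mean of 1.32 in growing to 0.94 in RIS (limma adjusted p = 0.0020), CTGF from 1.38 to 1.09 (limma adjusted p = 0.0036) and WISP1 from 1.47 to 1.18 (limma adjusted p = 0.0037). A further member, NOV, rose from -0.31 to 0.27 (limma adjusted p = 0.0025), and WISP2, with a difference of 0.05, was not called (limma adjusted p = 0.57), so the family did not move as one. CD93, a receptor of vascular endothelium that binds IGFBP7, rose from 0.17 to 0.84 (limma adjusted p = 0.0019). In insulation score, IGFBPL1, an IGFBP-like gene, fell from -1.01 to -1.44 (limma adjusted p = 0.00040) and KAZALD1 from -0.88 to -1.23 (limma adjusted p = 0.00028).

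The pair of bins from 216.8 and 216.88 Mb, left of IGFBP2 where MREG starts, had an O/E of 1.32, 1.33 and 1.31 in growing and 2.16 and 2.23 in RIS, from 216, 238, 214, 232 and 309 contacts, without overlap. Its adjusted p was 0.11 in the limma fit and 4.1e-06 with voom. On chromosome 7 the pair from 45.2 and 46.4 Mb, which spans the IGFBP1 border on both sides, had 4, 4 and 6 contacts in growing and 9 and 15 in RIS (limma adjusted p = 0.30, voom adjusted p = 0.030).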
